A study of Mus musculus with 6 samples.

Results

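The SLC30 genes encode the zinc transporters ZnT1 to ZnT10, and the 10 genes Slc30a1 to Slc30a10 were examined out of 21900 protein-coding genes in the RefSeq table of the mouse build GRCm38. Members were taken by name. Every peak in a gene body or within 50 kb on either side was collected from the peak lists, and Slc30a8 was set against the other 9. The data are CUT&RUN profiles of MIN6, a mouse insulin-secreting line derived from an insulinoma of mice that carried SV40 T antigen under an insulin promoter. CUT&RUN uses a nuclease tethered to an antibody inside opened cells to cut out the DNA around the antibody's target, which is then sequenced. There were 6 libraries, 2 for each antibody, with no other treatment or genotype named. The antibodies were against the cells' own MafA, against histone H3 trimethylated on lysine 4 (H3K4me3), the positive control, and nonspecific IgG, the negative control. Each library came from 500000 cells opened with 0.01% digitonin and was read as 150 bp pairs. No IgG file was used here. All libraries came from this single line, and the labels do not say whether replicates were separate cultures, so the spread between replicates may be technical.

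SLC30 proteins move zinc out of the cytosol, across the plasma membrane or into organelles and vesicles, while SLC39 (ZIP) proteins move it into the cytosol. In beta cells ZnT8, the product of Slc30a8, loads insulin granules with zinc, with which insulin is stored as crystals of hexamers. ZnT8 is also an autoantigen of type 1 diabetes. MafA is a basic leucine zipper factor of mature beta cells that activates the insulin genes. H3K4me3 marks the starts of active or poised genes.

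Replicates 1 and 2 had 33013 and 42747 MafA peaks and 16020 and 16904 H3K4me3 peaks. Fold enrichment is the authors' value for a peak: the fragment pileup at its summit over the local background. A MafA or H3K4me3 region is a place where peaks of both replicates of that target shared at least 1 bp, which gave 25894 and 15573 regions. The 10 windows held 19 and 26 MafA peaks and 23 and 23 H3K4me3 peaks in replicates 1 and 2, and no window overlapped another. The labelled cell type was checked by H3K4me3 at gene starts. The mark was found at 7 of 8 beta cell markers (all but Ins1). It was also found at 2 of 11 markers of other pancreatic cells (Gcg and Irx2). The share over all protein-coding genes was 57.0%.

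Promoter sequences from the RefSeq table of GRCm38.p6 are shown for 3 members that differ in their peaks: Slc30a6 had a MafA summit of replicate 2 inside the printed stretch, Slc30a4 carried H3K4me3 without a MafA peak at the start, and Slc30a10 carried no H3K4me3. Each runs 5′ to 3′ on the strand of the gene and ends just before its first annotated base. For Slc30a6 that base is 74395578, while the start used for distances, 74395608, lies inside the gene. Capitals mark TGCNCNC on either strand, which takes in the core bound by the zinc-sensing factor MTF-1. The pattern is wider than that core, so a capitalised stretch need not hold it. Overlapping matches are capitalised as 1 run.
Slc30a6, chr17:74395358-74395577, plus strand: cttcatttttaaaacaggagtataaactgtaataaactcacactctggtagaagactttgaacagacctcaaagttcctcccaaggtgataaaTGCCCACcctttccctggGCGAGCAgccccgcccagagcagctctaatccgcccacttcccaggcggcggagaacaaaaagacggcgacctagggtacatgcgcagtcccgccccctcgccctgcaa
Slc30a4, chr2:122702664-122702913, minus strand: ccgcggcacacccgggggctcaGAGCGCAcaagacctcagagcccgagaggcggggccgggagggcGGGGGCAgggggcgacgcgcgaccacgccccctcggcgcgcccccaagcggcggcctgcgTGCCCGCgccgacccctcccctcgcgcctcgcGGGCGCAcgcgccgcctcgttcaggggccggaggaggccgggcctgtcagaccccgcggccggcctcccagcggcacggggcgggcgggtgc
Slc30a10, chr1:185454598-185454847, plus strand: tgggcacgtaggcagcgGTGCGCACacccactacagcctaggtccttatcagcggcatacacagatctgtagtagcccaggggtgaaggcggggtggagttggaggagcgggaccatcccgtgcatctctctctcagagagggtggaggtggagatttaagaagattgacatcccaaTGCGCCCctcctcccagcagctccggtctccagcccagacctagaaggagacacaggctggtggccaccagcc

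MafA regions were found at 5 of the 10 members, and the strongest was at Slc30a8. Within 50 kb Slc30a8 had 5 regions, Slc30a7 had 4, and Slc30a2, Slc30a3 and Slc30a4 had 1 each. Slc30a5, Slc30a6, Slc30a9 and Slc30a10 had peaks in single replicates that did not meet a peak of the other, and Slc30a1 had no MafA peak. The count of 5 of 10 members lay under the background, since 66.1% of all protein-coding genes had such a region, and 84.2% of those with H3K4me3 at a start. Taken singly, replicate 1 had a peak at 7 members (background 70.8%) and replicate 2 at 9 (background 76.6%). The count also turned on the window, with 2 members within 10 kb (Slc30a7 and Slc30a8, background 44.0%) and all 10 within 100 kb (background 77.0%). The gene bodies of the same 2 members held a region, against 31.6% of genes. The order by number turned with the window as well: within 10 kb Slc30a7 had 3 regions and Slc30a8 had 2, and each had 2 that overlapped the gene body.

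**Figure D1:**
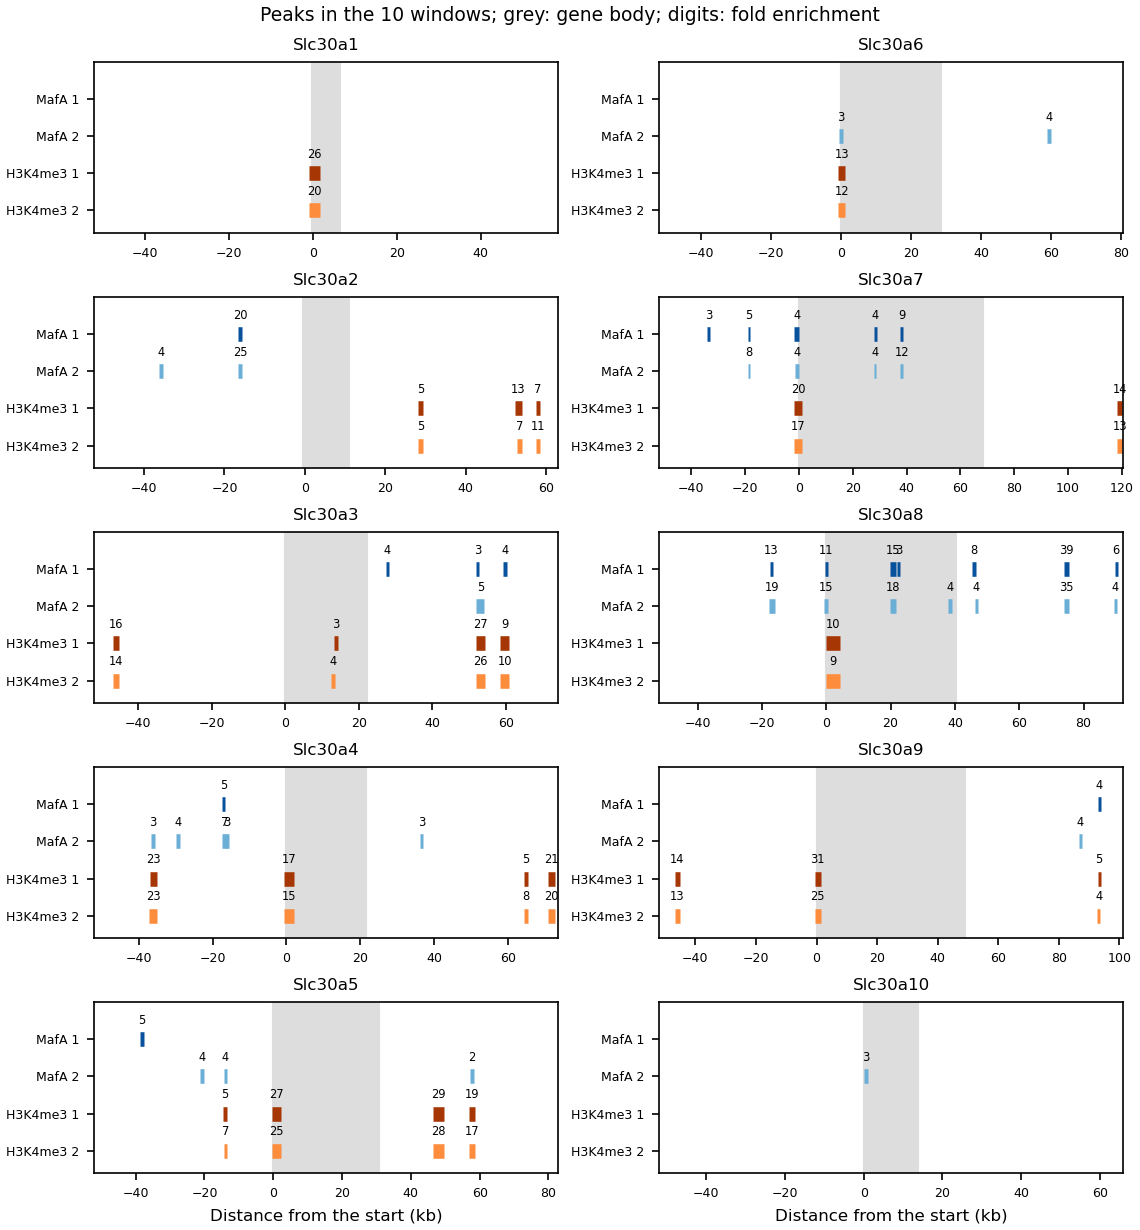
Peaks of the 4 libraries in the 10 windows, against distance in kb from the annotated start (for Slc30a8, from the gene end marked by H3K4me3), with the gene body in grey and fold enrichment written above each peak; peaks are drawn at least 1 kb wide. Slc30a8 shows 4 places with MafA values above 10 in both replicates, while Slc30a1 has H3K4me3 peaks only and Slc30a10 a single MafA peak.

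At Slc30a8, on chromosome 15 from 52295553 to 52335798, MafA regions lay upstream of the marked gene end, across it, inside the gene and beyond the far end. The gene table gives no strand for Slc30a8, so distances run from the gene end that carried H3K4me3, with positive values into the gene. The strongest region lay outside the gene, on chromosome 15 from 52369406 to 52371128. There the replicates gave a fold enrichment of 39.0 and 34.8, or 36.9 ± 2.91 (mean ± SD, n = 2). Its summits were 7 bp apart, 74.5 kb from the marked end and 33.6 kb past the other end. The peaks rested on 202 and 372 fragments at the summit, with backgrounds of 4.21 and 7 in units of pileup. Each fragment added 1 unit of pileup in replicate 1 and 0.746 in replicate 2.

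A second region lay inside the gene, from 52315261 to 52317202, with fold enrichment of 14.6 and 18.1 (16.4 ± 2.48, SD, n = 2) and summits 22 bp apart. Upstream, the region from 52277809 to 52279612 had 12.8 and 19.2 (16.0 ± 4.46, SD, n = 2), with summits 8 bp apart and centred 17.05 kb from the marked end. These intragenic and upstream sites did not differ beyond their spread.

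The region across the marked end, from 52294784 to 52296103, had 11.2 and 14.9 (13.1 ± 2.59, SD, n = 2). Its summits lay at 0.109 and -0.204 kb from the marked end, 313 bp apart. It was the only Slc30a8 region over H3K4me3, and the other 4 overlapped none. The weakest, from 52385192 to 52386017, had 6.12 and 4.40 (5.26 ± 1.22, SD, n = 2), and at 49.4 kb past the gene it lay just inside the window.

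The 4 stronger regions all exceeded 10 in both replicates and ranked between the 92.2nd and 99.8th percentiles of all MafA regions by mean fold enrichment. Of all MafA regions, 11.6% exceeded 10 in both replicates. At least 4 of them occurred in the windows of 66 protein-coding genes (0.301%), Slc30a8 included. The cut-off of 10 was not planned and the count of 4 is that of Slc30a8 itself, so this share is a description only. The number of regions alone was less unusual, as 12.6% of genes had 5 or more. At 3.57 regions per 100 kb of window, 9.75% of genes equalled or passed Slc30a8. The other 9 windows pooled had 0.607. Taken singly, Slc30a7 had 2.37, Slc30a2, Slc30a3 and Slc30a4 had 0.819 to 0.897, and the rest had 0. The median of single windows over protein-coding genes was 0.925.

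**Figure D2:**
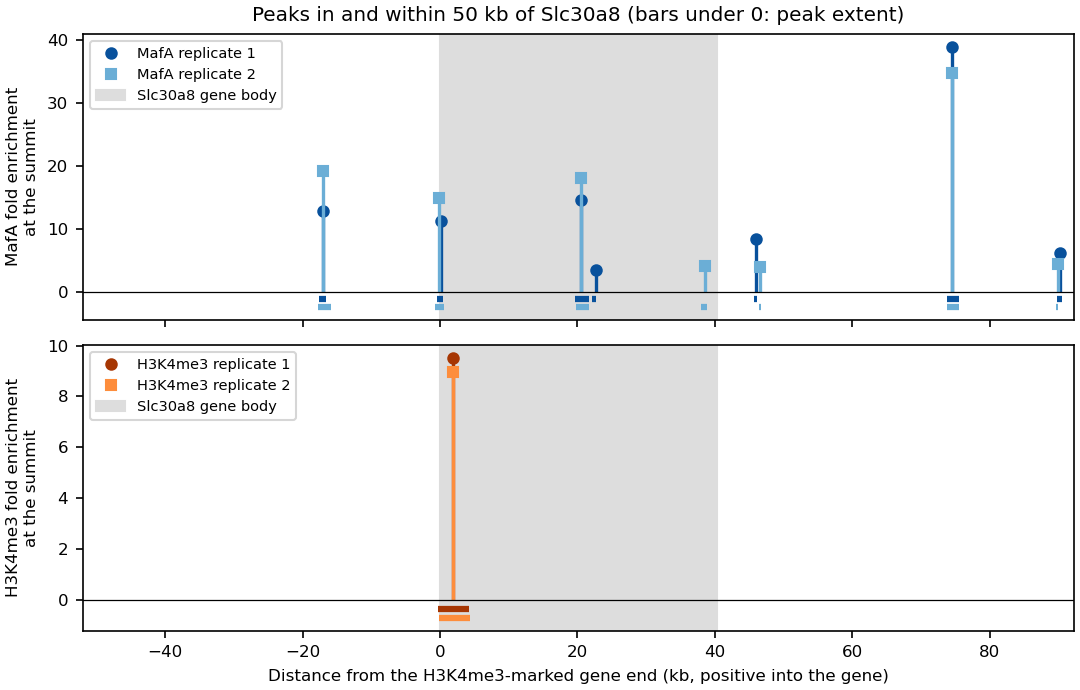
MafA (upper panel) and H3K4me3 (lower panel) fold enrichment at peak summits against distance in kb from the H3K4me3-marked end of Slc30a8, with the gene body in grey and the extent of each peak as a bar under 0. Both replicates have MafA summits at 4 strong places, 313 bp apart across the marked end and at most 22 bp apart at the others. The highest lies 74.5 kb from the marked end, while H3K4me3 forms a single peak at the gene end.

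Replicates did not meet everywhere at Slc30a8. About 46 kb from the marked end, replicate 1 had a peak with a fold enrichment of 8.41 and replicate 2 had one of 3.99, and the peaks shared no base. Replicate 1 alone had a peak of 3.49 inside the gene at 22.7 kb, and replicate 2 alone had one of 4.12 at 38.5 kb. All of these fell below the 4 strong regions.

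Slc30a8 is isolated on its chromosome, with the nearest protein-coding neighbours Aard at 249.8 kb and Med30 at 376.6 kb, so it was the nearest protein-coding gene to every region in its window. Just beyond the window, the region from 52216721 to 52218657, 76.9 kb before the marked end, had 36.2 and 45.9 (41.1 ± 6.86, SD, n = 2). Its replicate values overlap those of the strongest region inside the window. A further 2 regions between 50 and 100 kb had means of 8.50 and 4.76, and Slc30a8 was the nearest protein-coding gene to all 3.

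Among the other members, ordered by their strongest MafA region, Slc30a2 came next. Slc30a2 (chromosome 4, 134343046 to 134354484) encodes ZnT2, which fills secretory vesicles with zinc in mammary and other glands. Its single region, from 134326918 to 134327699, had 20.5 and 25.2 (22.9 ± 3.39, SD, n = 2). That region lay 15.3 kb outside Slc30a2 and inside Trim63, which encodes a ubiquitin ligase of muscle, and it overlapped no H3K4me3. Replicate values at Slc30a8 were 1.90 and 1.38 times those at Slc30a2, and the values of the genes did not overlap.

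Slc30a7 (chromosome 3, 115938973 to 116007414), which encodes the Golgi transporter ZnT7, had the most regions after Slc30a8 within 50 kb. The strongest, from 115968780 to 115969758, lay inside the gene with 8.93 and 11.7 (10.3 ± 1.99, SD, n = 2). Another inside the gene had 3.94 and 3.77. A region from 116007442 to 116009101 covered the shared start of Slc30a7 and the divergent gene Extl2, over H3K4me3, with 3.95 and 4.49 and summits 9 bp apart inside Extl2. These summits lay 188 and 179 bp before the Slc30a7 start, so both replicates had a MafA summit in the promoter of Slc30a7, which is not printed because it runs into Extl2. The last, also inside Extl2, had 4.61 and 7.54. The region at the shared start held more fragments (75 and 179) than the strongest region (33 and 80). Its background was 18.2 and 29.0 units of pileup, against 2.81 and 4.17.

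Slc30a4 (chromosome 2, 122681233 to 122702663) encodes ZnT4, whose loss gives mice zinc-poor milk. Its region, from 122719163 to 122719875, had 5.32 and 6.53 (5.92 ± 0.852, SD, n = 2) and lay 16.5 kb outside the gene, inside the noncoding gene 4930417H01Rik. Slc30a3 (chromosome 5, 31086106 to 31108244) encodes ZnT3, the zinc transporter of synaptic vesicles. Its region, from 31054130 to 31056381, had 3.14 and 4.63 (3.88 ± 1.05, SD, n = 2), 29.7 kb away at the start of Cad and over the H3K4me3 there. The summits lay 1306 bp apart, so that mean joins different positions.

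Slc30a8, Slc30a2, Slc30a7, Slc30a4 and Slc30a3 thus stood in this order of fold enrichment, and the replicate values of neighbours in the order did not overlap. The members were not tested against each other. The median of the highest value was 7.16 over all protein-coding genes with a region. Slc30a8, Slc30a2 and Slc30a7 lay above it, and Slc30a4 and Slc30a3 below. A value as high as that of Slc30a8 was found at 46 protein-coding genes (0.210%), itself included.

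**Figure D3:**
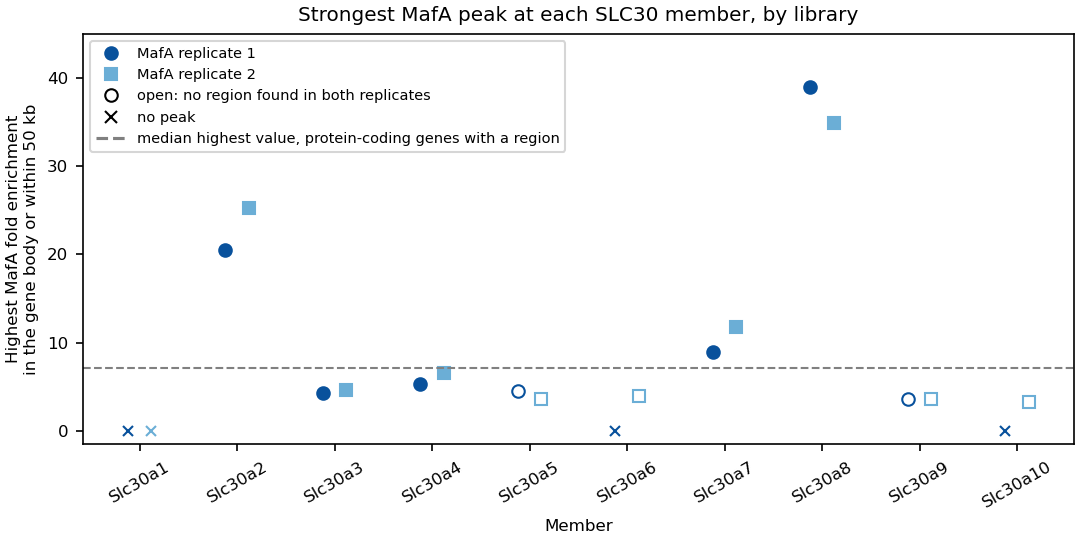
Highest MafA fold enrichment of any peak in the gene body or within 50 kb of each SLC30 member, with circles for replicate 1 and squares for replicate 2; open symbols mark members with no region found in both replicates and crosses mark libraries with no peak. Slc30a8 has the highest value in both libraries (39.0 and 34.8), ahead of Slc30a2 (20.5 and 25.2).

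The members without a region found in both replicates had low single peaks. Slc30a5 and Slc30a6 encode subunits that pair in the early secretory pathway. At Slc30a5 the highest values were 4.51 in replicate 1 and 3.68 in replicate 2, at different places. At Slc30a6, replicate 2 had a peak of 2.72 over the start, with its summit 201 bp before the start at base 50 of the sequence printed for it, and another of 4.01, while replicate 1 had none. Slc30a9, which encodes the mitochondrial transporter ZnT9, had 3.68 and 3.61 at different places. Slc30a10, which encodes a manganese exporter, had a single peak of 3.34 in replicate 2, 0.529 kb into the gene. Slc30a1 encodes ZnT1, which exports zinc across the plasma membrane and whose transcription MTF-1 activates.

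H3K4me3 was found within 1 kb of the start at 7 of the 10 members, against a background of 57.0% of protein-coding genes. The unmarked members were Slc30a2, Slc30a3 and Slc30a10. Slc30a9 had the highest mean, with 31.0 and 25.3 (28.2 ± 4.04, SD, n = 2). Slc30a5 had 26.95 and 24.6, Slc30a1 had 25.6 and 19.9, and Slc30a7 had 19.9 and 16.6. Slc30a4 followed with 17.1 and 14.6, and Slc30a6 with 12.5 and 11.6. The median over marked protein-coding genes was 17.8, so 4 of these members lay above it and 2 below.

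Slc30a8 carried the lowest and the widest H3K4me3 of the 7 marked members. The region ran from 52295318 to 52299846, from the gene end into the gene. Replicates 1 and 2 gave 9.52 and 8.97 (9.25 ± 0.390, SD, n = 2), at the 12.8th percentile of marked genes. The peaks were 4474 and 4448 bp wide (4461 ± 18.4 bp, SD, n = 2), at the 97.5th percentile. Widths at the other 6 marked members averaged 2016 to 2902 bp, and the median of marked genes was 2081 bp. The differences in width between Slc30a8 and each other member exceeded the spread between replicates. Only 7 of the 12474 marked genes (0.0561%), Slc30a8 included, had a region at least as wide with no higher fold enrichment, a description chosen after these values were seen.

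**Figure D4:**
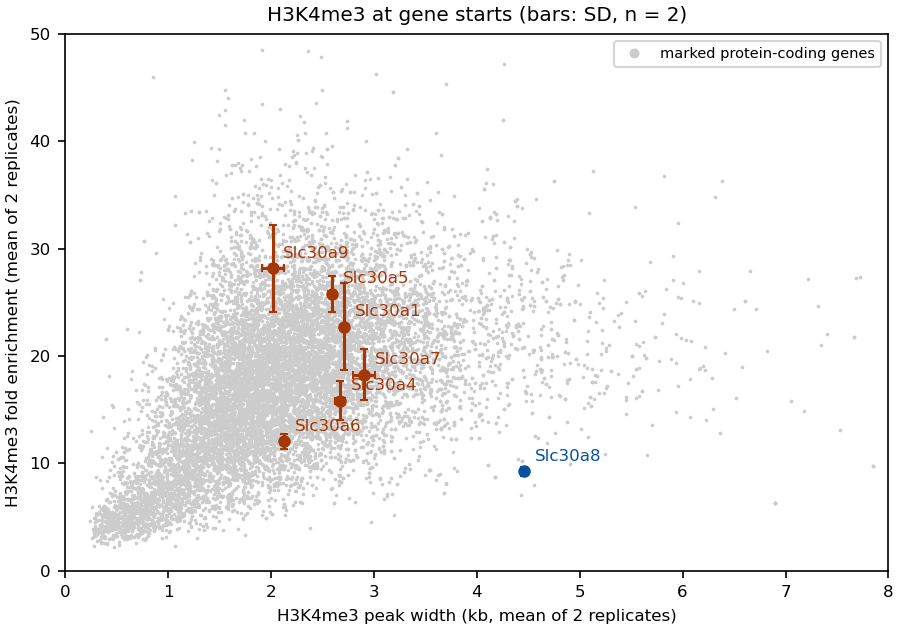
H3K4me3 fold enrichment against peak width in kb at gene starts, as means of 2 replicates; grey points are marked protein-coding genes (26 lie outside the axes), and coloured points with SD bars are the 7 marked SLC30 members. Slc30a8 lies apart from the other members at a width of 4.46 kb and a fold enrichment of 9.25.

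The H3K4me3 summits at Slc30a8 lay 1.94 and 1.93 kb inside the gene, while at the other marked members they lay between 0.117 and 0.596 kb past the start. The MafA region across the gene end overlapped the outer edge of this domain, and its summits were not at the H3K4me3 summits. At the unmarked Slc30a3, each replicate had a weak peak inside the gene (2.53 and 3.66) that the other did not share. The peak of replicate 1 lay within 1 kb of an annotated Slc30a3 start inside the gene, and that of replicate 2 did not. Most H3K4me3 peaks elsewhere in the windows belonged to neighbours, with 12 and 13 of the 23 peaks of replicates 1 and 2 at the start of another gene only. Examples were 26.8 and 26.4 at Cad in the Slc30a3 window and 29.1 and 28.4 at the cyclin gene Ccnb1 in that of Slc30a5.

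Of the 12 MafA regions in the family's windows, 3 (25.0%) overlapped H3K4me3, close to the background of 23.5% of all MafA regions. These were the regions at the starts of Slc30a8, Slc30a7 with Extl2, and Cad. A MafA region lay within 1 kb of the start of 2 members, Slc30a7 and Slc30a8, against 19.8% of protein-coding genes. Fold enrichment at the Slc30a8 start (11.2 and 14.9) was higher than at the start shared by Slc30a7 and Extl2 (3.95 and 4.49), and the values did not overlap. Fragments at those summits were 94 and 154 at Slc30a8, and 75 and 179 at Slc30a7 with Extl2, so these overlapped. The order of these starts thus depended on the background, which was 7.46 and 6.78 units of pileup at Slc30a8.

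Peak shape in the windows was compared between the targets over libraries. The median MafA peak was 660 and 593.5 bp wide in replicates 1 and 2, and the median H3K4me3 peak 1922 and 1850 bp, a difference of -1259 bp. Peaks within 1 kb of any gene start made up 26.3% and 34.6% of the MafA peaks and 87.0% and 87.0% of the H3K4me3 peaks, a difference of -56.5 percentage points. Both differences exceeded the spread between replicates. An exact permutation test (two-sided, n = 2 libraries each) gave p = 0.333 for each, the smallest that this design allows, so it could not reach 0.05.

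The promoters of 9 members were in the sequence table (10 promoters of 300 bases, 2 of them for Slc30a3), and Slc30a8 was not among them. Many, but not all, of the elements that MAF factors recognise contain TGCTGAC. A palindromic form was searched as TGC and GCA with 7 bases between them. The AP-1 element TGACTCA, which overlaps the other 2 motifs where a full MAF element is built around it, was searched as well. None of the 3 was found on either strand in the family's promoters. Over all 32851 promoters of the table they occurred in 4.67%, 7.67% and 5.20%. Other forms of MAF element were not searched, so the lack of a match is not absence of MAF sites. The pattern TGCNCNC, wider than the MTF-1 core, was added after the peaks had been seen. It occurred in 7 of the 10 family promoters (at 7 of the 9 members), against 51.03% of all promoters. Slc30a4 had 5 such matches, of which 4 lie in the stretch printed for it, and Slc30a9 and Slc30a7 had none. A match is a description of the letters and not of a bound site.

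GC content of the 250 bases before the start was 82.8% at Slc30a4 and 71.2% at Slc30a1, which carried 40 and 25 CpG dinucleotides, against medians of 52.4% and 6 over all promoters. Both carried H3K4me3. The unmarked Slc30a10 had 60.8% and 9 CpG, and the marked Slc30a6 had 54.8% and 12. Slc30a2 had 20 CpG without the mark, so CpG number did not order the members by H3K4me3.

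Other zinc-handling genes were read by the same rule, with a list of 14 ZIP importers (Slc39a1 to Slc39a14), 4 metallothioneins, which bind zinc in the cytosol, and Mtf1. MafA regions lay at 15 of the 19 genes, against the 66.1% of protein-coding genes given above, and H3K4me3 at the start of 14, against 57.0% of protein-coding genes. The ZIP genes accounted for 10 of 14 and the metallothioneins for 4 of 4. None reached the value at Slc30a8. Slc39a8, a zinc and manganese importer, had the highest, with 14.1 and 16.9 (15.5 ± 1.99, SD, n = 2) inside the gene. Slc39a3 had 9.42 and 15.4 in its window, but that region lay inside Gng7. Slc39a11 had 10.99 and 11.7, 29.7 kb outside the gene. Slc39a4 had 8.41 and 10.5 at 45.4 kb, but Adck5 was the nearest gene to that region. The 4 metallothionein genes are neighbours and shared their strongest region, inside Mt3, with 8.18 and 6.72. At Mtf1 the values were 3.94 and 4.74. In number of regions, 5 genes of the list equalled or passed Slc30a8: Slc39a11 (14), Mt1 (7), Mt2 (6), Mt4 (5) and Slc39a4 (5). The windows of the metallothionein genes overlap, so a shared region counts at more than 1 of them. These numbers were not set against window length.

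The 5 protein-coding genes whose peaks were most like those of Slc30a8 were Smim20, Lypd6b, Sphkap, Antxr1 and Lrrc4. Likeness was the distance over log2(highest fold enrichment within 50 kb + 1) in the 4 libraries, and it ranged from 0.30 to 0.53. Smim20 was nearest, with 31.7 and 36.4 for MafA and 9.66 and 9.08 for H3K4me3 in replicates 1 and 2. The points of this distance are replicates of 2 targets in a single cell line, and it is a description over 4 libraries only.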

How the data were processed

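Peaks were called per library with MACS2 on GRCm38/mm10, per the submitters' processing notes; the aligner, MACS2 version, duplicate handling and control library are not given in the sources used here. The authors' fold enrichment, a linear ratio, divides the summit pileup by the local background. The deposited −log10 p and −log10 q values belong to the summit, and the lowest −log10 q was 2.00. The deposited score repeats the q-value and was not used. Read totals are unknown. Whole fragments at MafA summits were recovered from fold enrichment and p-value (pseudocount 1; all of 150 random peaks per list solved). Backgrounds were left in units of pileup, at 1 unit per fragment in replicate 1 and 0.746 in replicate 2. Positions are 1-based.

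Gene positions came from the RefSeq table of GRCm38.p6. Starts came from its promoter table for 17492 of 21900 protein-coding genes and 9 members; either gene end was used for the rest. The planned motif search at summits needs genome sequence, so promoters were searched instead. The strength of a region is that of its strongest peak in each replicate. Named were all 10 members, every region of Slc30a8, the strongest region of each other member, the 5 strongest of the zinc list and the 5 genes most like Slc30a8. The members, lists and tests were chosen with earlier results of these data known. Alternatives tried were a minimum −log10 q of 5, the 16020 strongest peaks of each list, 50% reciprocal overlap, other windows, other measures of strength, a replicate block and left-out libraries. Overlap and fragment routines were tested on simulated data. Work was done with matplotlib 3.10.9, scipy 1.17.1, pandas 2.3.3 and numpy 2.4.6 under Python 3.11.15.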

Additional observations from a re-analysis of the deposited data

How the results depend on the processing

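Slc30a8 ranked 1 of the 10 members under every alternative run: a −log10 q of at least 5, the strongest peaks, 50% reciprocal overlap, windows of 10 and 100 kb, the gene body alone (added after seeing the data), ranking by fragments or by −log10 q, and either MafA library left out. Its highest fold enrichment of 36.9 was 16.4 within 10 kb or in the gene body alone and 41.1 within 100 kb. Within 10 kb there were 2 members with a region, 5 regions in all and 2 at Slc30a8, fewer than the 3 at Slc30a7; within 100 kb there were 10, 34 and 8, with 12 over H3K4me3; and 2 members had a region in the gene body. The strongest peaks left 7 regions, 1 of them over H3K4me3, and 8 zinc-handling genes. Leaving out a MafA library, so that every peak of the other counts, gave 7 to 9 members, 19 to 26 regions and 5 to 7 over H3K4me3. These changes follow from wider windows or from more or fewer peaks. Slc30a3 lost its region under 50% reciprocal overlap, with the strongest peaks and at a −log10 q of at least 5. The MAF and AP-1 motifs stayed at 0 members in the 100 bp centred on the start. The pattern TGCNCNC, at 7 members, is a different motif, so it says nothing about the stability of that 0. H3K4me3 at the start held at 7 members in 5 alternatives and was 8, with Slc30a3 added, without H3K4me3 replicate 2.

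Over the alternatives, MafA minus H3K4me3 peak width lay between -1849 and -939 bp, and the difference in start share between -75.2 and -47.2 points. A replicate block left them at -1259 bp and -56.5 points (exact permutation p = 0.5 for both, the smallest it can give). Nothing in the labels ties equal replicate numbers to a shared culture or day. With 2 libraries per target, these p-values say nothing about stability. Absence from a peak list is not absence of binding.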
